A study of Mus musculus with 16 samples.

Results

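Fibroblasts of the proximal and distal stomach were compared between E17.5 and E15.5 in 4 of the 16 RNA-seq libraries of the series. They are the 2 libraries of PDGFRα-positive cells from E17.5 embryos and the 2 from E15.5 embryos, 1 library for each stage and region, and they were taken by their labels and not by any measured value. The embryos of both stages carried the same pair of reporters, Sox2-EGFP and Gata4-td Tomato. The fibroblasts were sorted with an antibody to PDGFRα from the mesenchyme of the proximal stomach (the future forestomach) or of the distal stomach (the future glandular stomach). The number of embryos in a library is not given in the sources used here. A pair of fibroblast libraries from E13.5 embryos is set beside them where an earlier stage helps. Values are FPKM (fragments per kilobase of transcript, scaled to the mapped fragments of the library), given for the proximal and then the distal library. The comparison asks which genes of stomach mesenchyme differ over the days in which the forestomach lining stratifies and the glandular lining begins to form glands.

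Stomach fibroblasts descend from the splanchnic mesoderm around the foregut. They lay down collagen, elastic fibres and proteoglycans, and they exchange signals with the epithelium: FGF10, WNT and BMP proteins and their antagonists pass from mesenchyme to epithelium, and hedgehog proteins pass the other way and are read in the mesenchyme through PTCH1 and GLI1. A small group of genes that mark early embryonic stages, among them HMGA2 and the IGF2BP proteins, is expressed at lower levels as many organs of the mouse mature, and microRNAs of the let-7 family are known to repress several of them.

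Pdgfra, the gene of the receptor used for the sort, stood at 160.1 and 215 FPKM at E17.5, against 139 and 152 FPKM at E15.5, so all 4 libraries carried the gene that defined them. Dcn, a proteoglycan gene of fibroblasts, was at 1538 and 1086 FPKM at E17.5, against 1098 and 587 FPKM at E15.5. The 20 general epithelial markers summed to 7.30 and 6.56 FPKM at E17.5 and 8.71 and 3.32 FPKM at E15.5, against 1620.0 to 2437 FPKM in the E13.5 epithelial libraries. Ptprc of leukocytes, Sox10 of enteric glia, Cdh5 of endothelium and Msln of mesothelium were at or near 0 in all 4 libraries. Other members of their lists were expressed. Mesothelial markers summed to 245.5 and 157.4 FPKM at E17.5 and 170.8 and 74.4 FPKM at E15.5. For enteric neurons and glia the sums were 22.02 and 102 FPKM at E17.5 and 45.13 and 78.54 FPKM at E15.5. For endothelium they were 18.01 and 24.96 FPKM at E17.5 and 16.7 and 15.08 FPKM at E15.5. Further marker lists differed between the stages. Squamous keratinocyte markers summed to 79.3 and 25.8 FPKM at E17.5 and 15.3 and 13.7 FPKM at E15.5, leukocyte markers to 8.28 and 7.48 FPKM and 3.20 and 3.92 FPKM, and erythroid markers to 0.358 and 0.874 FPKM and 5.47 and 12.3 FPKM. Smooth muscle markers, which stomach mesenchyme expresses itself, were abundant at both stages. The EGFP reporter was at 0.158 and 0.537 FPKM at E17.5, against 1.44 and 4.41 FPKM at E15.5.

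**Figure D1:**
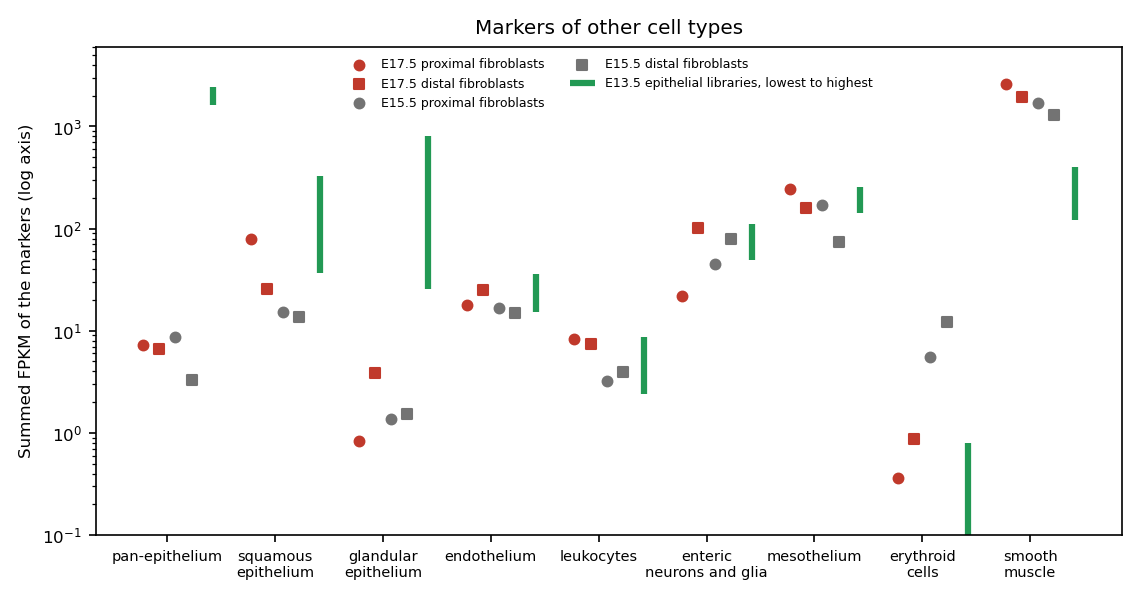
Summed FPKM (log axis) of marker lists of other cell types in the 2 E17.5 fibroblast libraries (red), in the 2 E15.5 fibroblast libraries (grey) and over the 8 E13.5 epithelial libraries (green bar, lowest to highest; an end at 0 is drawn at the foot of the axis). Circles are proximal and squares distal. The general epithelial markers lie between 3.32 and 8.71 FPKM in all 4 fibroblast libraries, and the squamous markers reach 79.3 FPKM in the E17.5 proximal library.

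Depth, read from the steps of the lowest values, was nearly even among the 4 libraries, from 0.940 to 1.04 times that of the E15.5 proximal library. The total number of reads is not known, so no counting interval is given. The deposited values summed to 496910 and 491691 FPKM at E17.5 and to 560675 and 553994 FPKM at E15.5, and the median log2 difference over all genes was -0.25 in the proximal and -0.20 in the distal pair. With each library scaled to the same sum (a TPM scale) it was -0.10 and -0.05. Differences are to be read against that shift. Xist was at 49.0 and 76.7 FPKM at E17.5, and 50.9 and 63.1 FPKM at E15.5, and Ddx3y of the Y chromosome was at or near 0 in these 4 libraries but at 12.7 and 10.6 FPKM at E13.5, so the E13.5 pair held cells of male embryos. Stage and litter cannot be told apart.

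A gene was tested when its mean over the 4 libraries was at least 1 FPKM, which 12675 genes reached. Differences are of log2(FPKM + 1), E17.5 minus E15.5, a scale that understates the change of low genes. Of these genes, 332 were at least 2-fold higher at E17.5 in both regions (2.62% of those tested), and 223 were at least 2-fold lower in both (1.76%). Protein-coding genes made up 279 of the higher and 160 of the lower ones. The higher genes were 59.8% of the total, and 71.4% on the TPM scale, but 40.9% when the proximal pair alone was judged (without either distal library) and 53.3% in the distal pair alone. Any difference in 1 direction in both regions was seen for 2366 higher genes (18.7%) and 6988 lower genes (55.1%). On the TPM scale it was seen for 3580 higher (28.2%) and 5215 lower (41.1%). Counts of gene list members are to be read against these shares. The gene lists were chosen with earlier results of these data known.

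Calls on single genes were few. A limma fit with region and stage called 11 genes higher (0.0868%) and 3 lower (0.0237%) at an adjusted p under 0.05, while 3668 genes had an unadjusted p under 0.05. Its 1 residual degree of freedom is the disagreement of the 2 regions and not the spread between repeat libraries, so the p-values do not measure variation between embryos. When the E13.5 pair was added to the fit, limma called 212 genes higher (1.67%) and 334 lower (2.64%) between E17.5 and E15.5. Those calls did not outlast the loss of any 1 of the 4 libraries. The 6-library fit then has 1 residual degree of freedom in place of 2, so this cannot show how much each library carried. A gene is said here to have risen or fallen where the 4-library fit called it. Other differences are given as values, in places with the adjusted p of the 6-library fit. Its 2 residual degrees of freedom are likewise the disagreement of the regions between stages, so its p-values do not measure variation between embryos either. Counts of list members called by that fit are to be read against its shares over all genes, 1.67% higher and 2.64% lower.

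**Figure D2:**
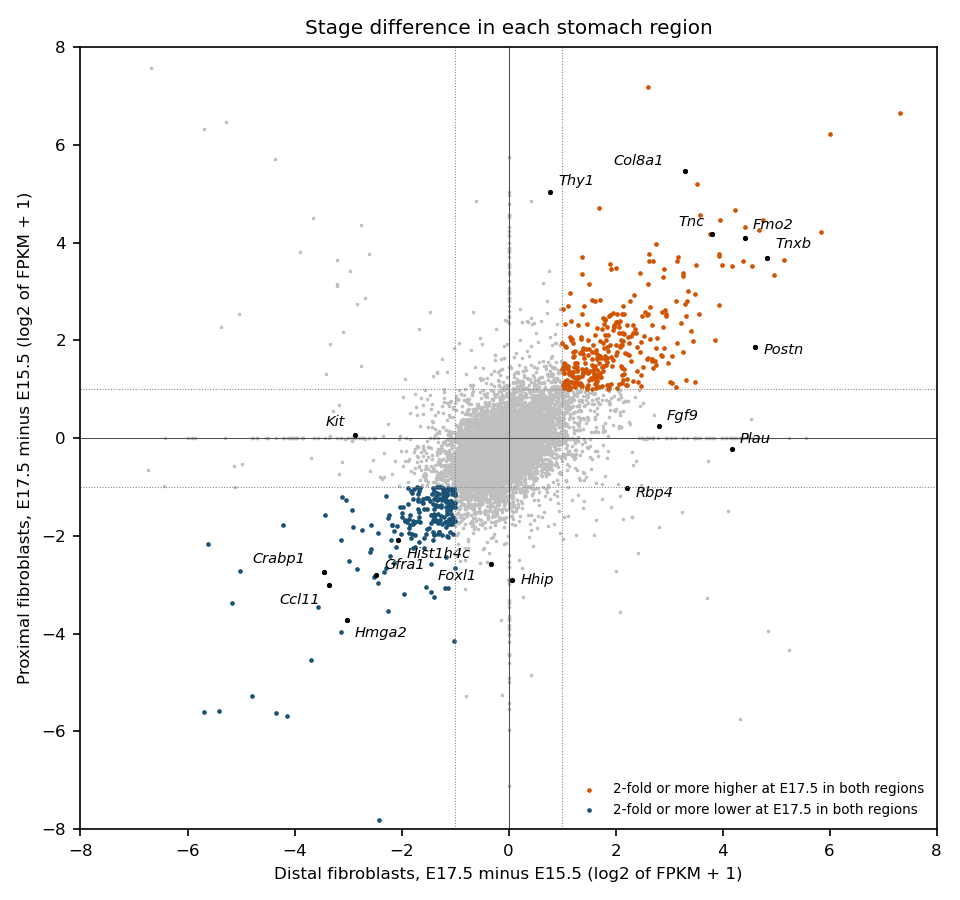
Difference between E17.5 and E15.5 in log2(FPKM + 1) for each of the 12675 genes tested, in the distal pair (horizontal) and the proximal pair (vertical); dotted lines mark a 2-fold difference. Orange points are the 332 genes at least 2-fold higher in both regions, blue points the 223 at least 2-fold lower in both, and black points are the named genes. Tnc, Fmo2 and Tnxb lie to the upper right and Hmga2, Ccl11 and Crabp1 to the lower left, while Thy1, Plau, Fgf9, Foxl1, Hhip and Kit differ by 2-fold or more in 1 region only.

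Among the genes with the largest increase in both regions, 4 named protein-coding genes rose by the 4-library fit. Tnc encodes tenascin-C, a matrix glycoprotein of growing and healing connective tissue, and lies at chr4:63959784-64047015 (mm10). It stood at 16.1 and 8.41 FPKM at E13.5, 9.95 and 8.54 FPKM at E15.5, and 196 and 132 FPKM at E17.5. Both E17.5 libraries were far above all 4 earlier ones, with a log2 difference over E15.5 of 3.99 ± 0.16 (SE, limma adjusted p = 0.0409).

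Fmo2 and Fmo1 encode flavin-containing monooxygenases, which oxidize amines and sulfides, and lie next to each other at chr1:162874316-162898726 and chr1:162829560-162866610. Fmo2 was at 42.3 and 22.1 FPKM at E17.5, against 1.53 and 0.0856 FPKM at E15.5. Fmo1 was at 78.7 and 31.7 FPKM at E17.5, against 5.04 and 1.15 FPKM at E15.5. For both genes the proximal library was the higher one at each stage, and the stages did not overlap. Their log2 differences were 4.26 ± 0.18 for Fmo2 and 3.83 ± 0.15 for Fmo1 (adjusted p = 0.0409 for each). Gadd45g, a stress and growth-arrest gene, was at 141 and 95.7 FPKM at E17.5, against 9.44 and 5.36 FPKM at E15.5 (log2 difference 3.85 ± 0.14, adjusted p = 0.0409). The calls of Tnc, Fmo2, Fmo1 and Gadd45g were near the threshold: none of the 4 was called with a pseudocount of 0.1 or 0.5, on the TPM scale, without the filter on low values or without the variance trend, where their adjusted p ranged from 0.055 to 0.26, and without the pairing of regions Tnc and Gadd45g alone were called. None of the 4 was called when any 1 of the E17.5 or E15.5 libraries was left out of the 6-library fit (adjusted p = 0.113 to 0.302, limma). The differences kept their direction throughout.

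The other genes at the top of the ranking missed the threshold of the 4-library fit, and most of them make secreted or matrix proteins. Tnxb, the gene of tenascin-X, which organizes collagen fibrils, was at 28.9 and 46.7 FPKM at E17.5, against 1.34 and 0.667 FPKM at E15.5 (adjusted p = 0.0605, and 0.0187 in the 6-library fit). Clec3b, or tetranectin, which binds plasminogen, was at 210.2 and 67.6 FPKM at E17.5, against 16.2 and 2.28 FPKM at E15.5. Both genes were lower still at E13.5, with Tnxb at 0.183 and 0.167 FPKM and Clec3b at 0.151 and 0.151 FPKM.

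Agt, the precursor of angiotensin, was at 74.7 and 122 FPKM at E17.5, against 6.53 and 2.94 FPKM at E15.5. Col8a1, a short-chain collagen of vessel walls and other tissues, was at 54.1 and 23.1 FPKM at E17.5, against 0.245 and 1.46 FPKM at E15.5. Ecm1, a secreted glycoprotein, had another course, with 128 and 7.25 FPKM at E13.5, 4.78 and 2.74 FPKM at E15.5, and 74.4 and 32.7 FPKM at E17.5. Its level in the proximal E13.5 library was above that of every later one. Aldh1a1, a retinaldehyde dehydrogenase of retinoic acid synthesis, was likewise lowest at E15.5 in the proximal stomach, with 14.2 and 1.89 FPKM at E13.5, 0.918 and 1.78 FPKM at E15.5, and 18.03 and 25.8 FPKM at E17.5 (adjusted p = 0.0502).

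Ptgfr, the receptor of prostaglandin F2 alpha, was at 26.0 and 13.8 FPKM at E17.5, against 2.48 and 0.330 FPKM at E15.5. Mt1, a metallothionein that binds zinc and copper, was at 32.9 and 23.4 FPKM at E17.5, against 2.08 and 2.28 FPKM at E15.5. Adamtsl4, a fibrillin-binding glycoprotein, was at 63.6 and 33.0 FPKM at E17.5, against 5.58 and 3.59 FPKM at E15.5. In these genes both E17.5 libraries were several times above both E15.5 libraries. Chodl, a membrane protein with a lectin domain, was higher in the proximal stomach, at 29.5 and 6.403 FPKM at E17.5, against 0.934 and 0.0943 FPKM at E15.5.

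**Figure D3:**
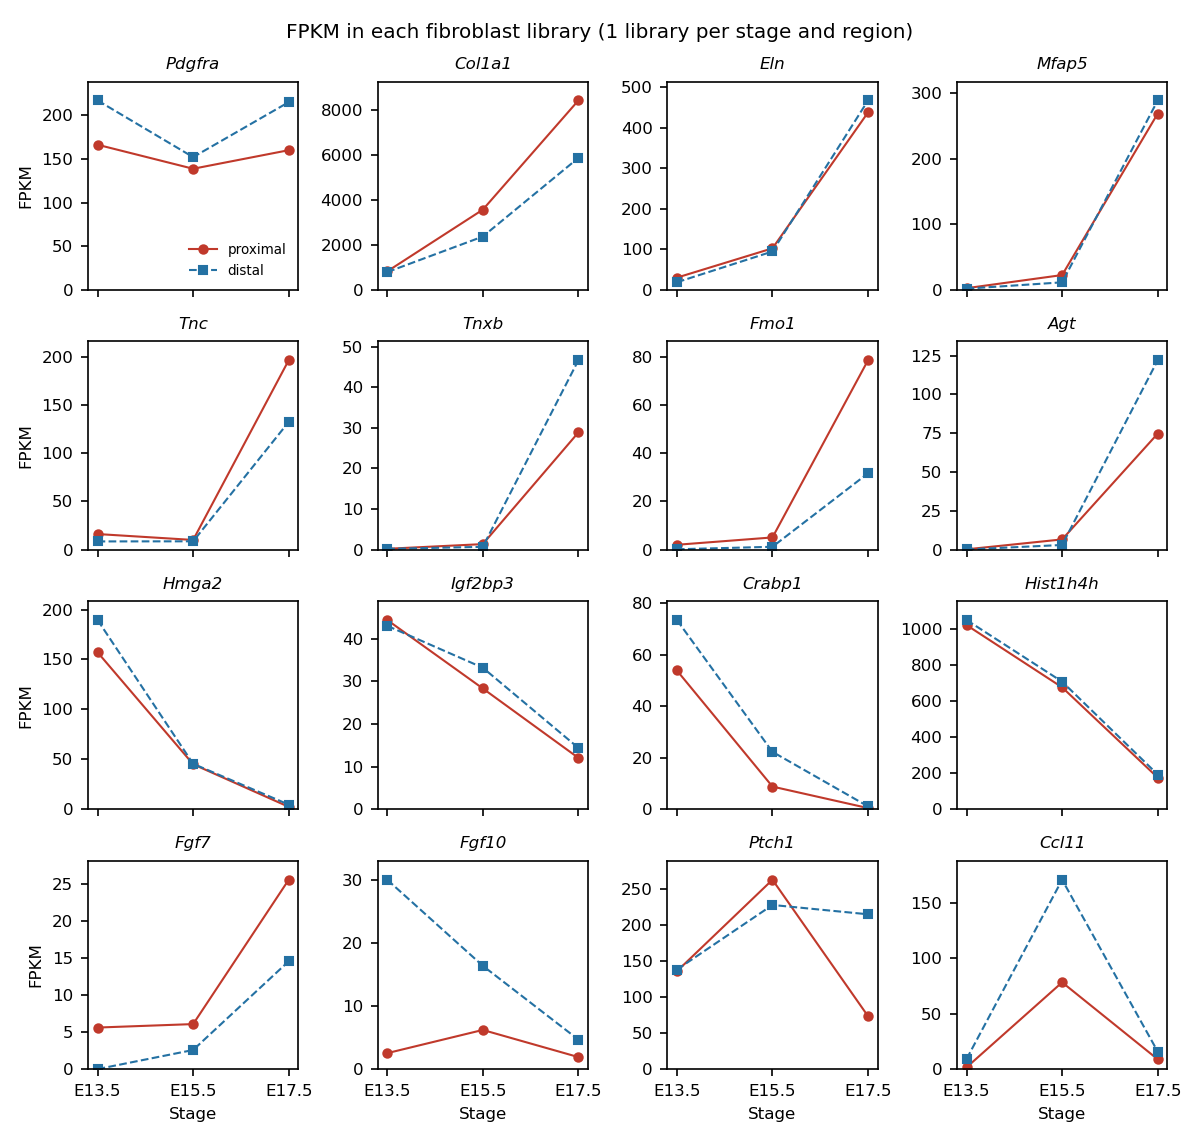
FPKM of 16 genes in proximal (red circles, solid) and distal (blue squares, dashed) fibroblasts of the 3 stages; each point is 1 library, so there are no error bars, and each panel has its own axis from 0. Matrix genes such as Col1a1, Eln, Mfap5 and Tnc are highest at E17.5, Hmga2, Igf2bp3, Crabp1 and Hist1h4h are lowest there, Ccl11 is highest at E15.5, and Ptch1 is lowest in the E17.5 proximal library.

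The fibrillar collagens, which give connective tissue its tensile strength, were mostly higher at E17.5. Of 10 tested, 9 were higher in both regions and 1 lower, and the median log2 difference was 0.67 in the proximal and 0.92 in the distal pair, against -0.25 and -0.20 over all genes. The 4-library fit called none and the 6-library fit called 6 higher, beside 1.67% of all genes. Col3a1, the collagen of loose connective tissue and the most abundant of them, was at 17247 and 13316 FPKM at E17.5, against 9217 and 6641 FPKM at E15.5. Col1a1 was at 8412 and 5859 FPKM at E17.5, against 3558 and 2364 FPKM at E15.5. Its partner chain Col1a2 was at 5223 and 3282 FPKM at E17.5, against 2273 and 1351 FPKM at E15.5. The 2 regions gave nearly the same difference, for Col1a1 1.24 in the proximal and 1.31 in the distal pair. Col5a3, a chain of a collagen that starts fibrils, was at 27.1 and 11.1 FPKM at E17.5, against 5.33 and 1.41 FPKM at E15.5. The exception was Col2a1 of cartilage, at 0.0995 and 0.106 FPKM at E17.5, against 3.72 and 0.303 FPKM at E15.5.

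Of 25 other collagen chains tested, 17 were higher in both regions and 6 were at least 2-fold so. Col15a1, a collagen of the basement membrane zone, was at 3.45 and 0.413 FPKM at E13.5, 99.0 and 49.4 FPKM at E15.5, and 668 and 491 FPKM at E17.5. It was near 0 at the first stage and among the abundant matrix genes at the last. Col6a5, a chain of the filament-forming collagen VI, was at 106 and 27.6 FPKM at E17.5, against 12.4 and 1.80 FPKM at E15.5 (adjusted p = 0.0503). Col18a1, the source of endostatin, was at 84.7 and 71.5 FPKM at E17.5, against 22.4 and 16.2 FPKM at E15.5. Col4a6 of basement membranes was at 72.8 and 56.1 FPKM at E17.5, against 28.2 and 19.3 FPKM at E15.5.

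Elastic fibre genes were higher nearly throughout. All 22 members were tested, 19 were higher in both regions, 0 were lower in both, and 7 (31.8%) were at least 2-fold higher in both. Elastin itself, Eln, was at 438 and 468 FPKM at E17.5, against 102 and 94.5 FPKM at E15.5, with a log2 difference of 2.19 ± 0.12 (adjusted p = 0.0503, and 0.0258 in the 6-library fit). Mfap5, which sits on fibrillin microfibrils, was at 2.43 and 1.69 FPKM at E13.5, 22.4 and 11.3 FPKM at E15.5, and 269 and 289 FPKM at E17.5. The 2 regions were close in both genes at E17.5. Loxl1, a lysyl oxidase that crosslinks elastin, was at 94.5 and 118 FPKM at E17.5, against 39.0 and 46.3 FPKM at E15.5. Ltbp2, a microfibril protein, was at 8.54 and 10.2 FPKM at E17.5, against 1.63 and 1.11 FPKM at E15.5.

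Small leucine-rich proteoglycans, which coat collagen fibrils, had a median difference of 1.07 in the proximal and 1.13 in the distal pair. Of 15 listed, 9 passed the filter on low values, 7 of them were higher in both regions, and 4 were at least 2-fold higher. Bgn, or biglycan, was at 1080.4 and 832 FPKM at E17.5, against 387 and 242 FPKM at E15.5. Prelp was at 36.8 and 7.48 FPKM at E17.5, against 2.19 and 1.27 FPKM at E15.5. Podn was at 9.31 and 3.98 FPKM at E17.5, against 1.21 and 0.293 FPKM at E15.5. Both Prelp and Podn were higher in the proximal than in the distal stomach. Aspn, or asporin, was at 214 and 230.1 FPKM at E17.5, against 126 and 62.2 FPKM at E15.5.

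Of 25 matricellular and adhesive glycoproteins tested, 17 were higher in both regions, 8 (32.0%) at least 2-fold so, and Tnc was the one called. Postn, or periostin, was at 235 and 307 FPKM at E17.5, against 64.1 and 11.6 FPKM at E15.5, a log2 difference of 1.86 in the proximal and 4.61 in the distal pair. The E15.5 distal library was the low one. Frem2, a protein of the epithelial basement membrane, was at 32.3 and 18.7 FPKM at E17.5, against 4.73 and 3.52 FPKM at E15.5. Thbs3, a thrombospondin, was at 44.8 and 79.2 FPKM at E17.5, against 11.2 and 17.8 FPKM at E15.5.

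Among 31 matrix proteases and their inhibitors, 21 were higher in both regions, and the 6-library fit called 6. Mmp19, a matrix metalloproteinase, was at 22.1 and 8.87 FPKM at E17.5, against 5.01 and 1.90 FPKM at E15.5. Mmp23, another, was at 45.2 and 32.8 FPKM at E17.5, against 17.52 and 6.56 FPKM at E15.5. Serpinf1, the secreted factor PEDF, was at 140.2 and 54.0 FPKM at E17.5, against 45.1 and 17.7 FPKM at E15.5. All were higher in the proximal library at both stages. Plau, the plasminogen activator urokinase, was high in 1 library only, at 0.795 and 29.2 FPKM at E17.5, against 1.11 and 0.678 FPKM at E15.5. The medians of the collagen, elastic fibre and proteoglycan lists were positive on the TPM scale too.

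**Figure D4:**
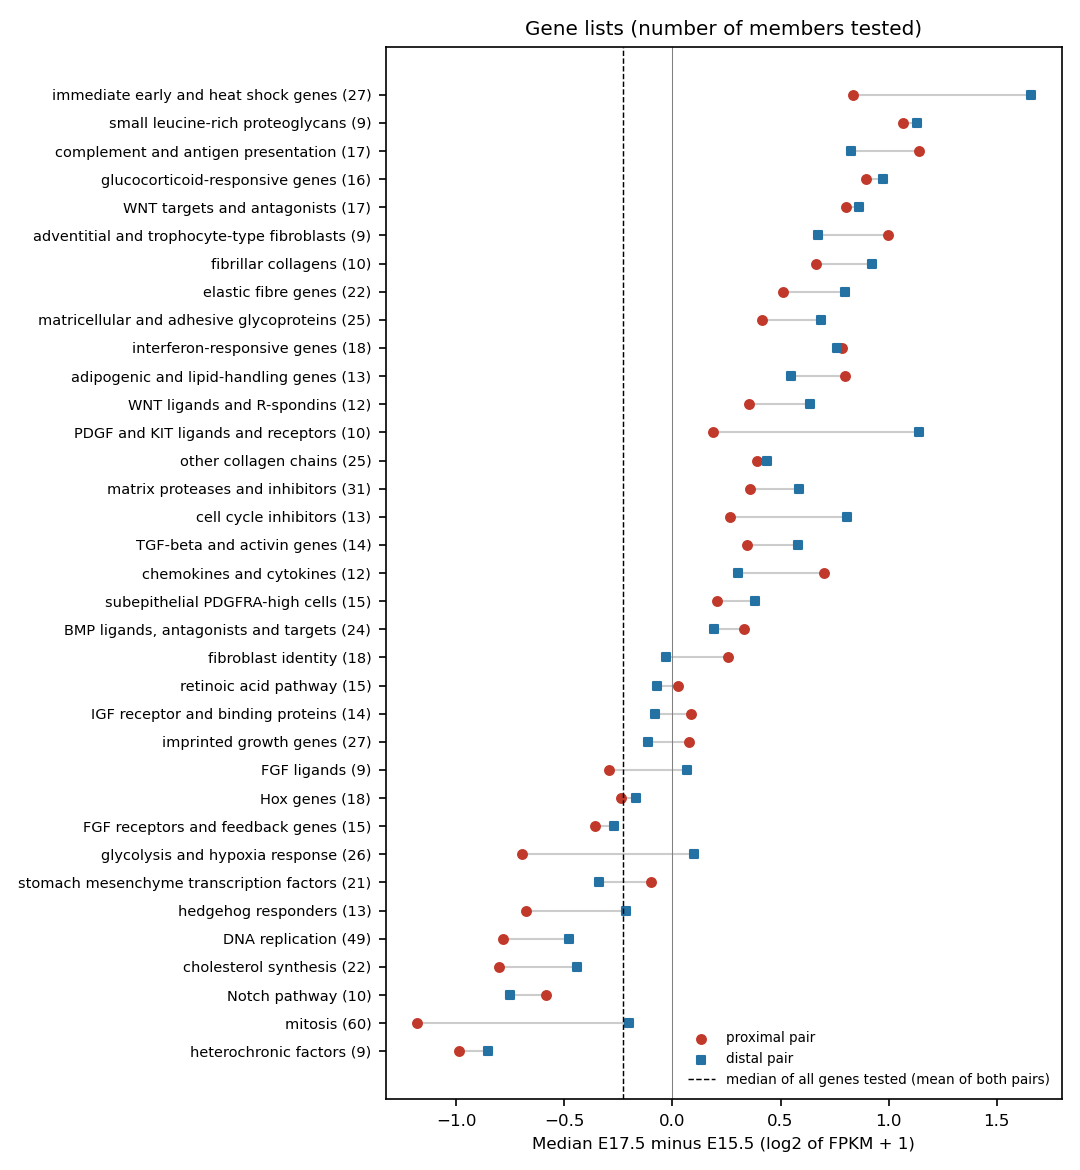
Median difference between E17.5 and E15.5 (log2 of FPKM + 1) over the tested members of each gene list, in the proximal (red circles) and the distal (blue squares) pair, with the number tested in brackets; the dashed line is the median of all genes, -0.23. Matrix, immediate early, complement and glucocorticoid-responsive lists lie to the right of it, and heterochronic factors, Notch, cholesterol synthesis and DNA replication lie to the left, as does the proximal median of mitosis genes.

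On the lower side, the first protein-coding gene in the ranking was Hmga2, a chromatin protein of proliferating embryonic cells, at chr10:120361274-120476469. It was at 157 and 189.6 FPKM at E13.5, 45.1 and 45.6 FPKM at E15.5, and 2.48 and 4.72 FPKM at E17.5. The 3 stages did not overlap, and the log2 difference between E17.5 and E15.5 was -3.38 ± 0.23 (adjusted p = 0.0554, and 0.0139 in the 6-library fit). Hmga1, its relative, had the same order, at 46.5 and 89.3 FPKM at E13.5, 7.91 and 21.02 FPKM at E15.5, and 2.50 and 4.99 FPKM at E17.5.

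The RNA-binding proteins of the IGF2BP family, which bind growth-related mRNAs in the embryo, were lower as well. Igf2bp1 was at 3.57 and 9.27 FPKM at E17.5, against 17.49 and 21.6 FPKM at E15.5. Igf2bp3 was at 12.1 and 14.4 FPKM at E17.5, against 28.4 and 33.2 FPKM at E15.5. Igf2bp2 was at 47.0 and 44.9 FPKM at E17.5, against 86.8 and 77.4 FPKM at E15.5. All E17.5 values lay below all E15.5 values in each of these genes. Plagl2, a zinc-finger factor, was at 4.16 and 4.73 FPKM at E17.5, against 9.21 and 9.34 FPKM at E15.5. These genes belong to a list of 14 heterochronic factors, put together from genes known as early-stage genes or let-7 targets. Of the 9 that passed the filter, 7 were lower in both regions, beside 55.1% of all genes, and 4 (44.4%) were at least 2-fold lower, beside 1.76%. The median was -0.99 in the proximal and -0.85 in the distal pair, and the 6-library fit called 5 of the 9 lower. Arid3b ran the other way, at 3.17 and 2.85 FPKM at E17.5, against 1.45 and 1.21 FPKM at E15.5. Lin28a, whose protein blocks the maturation of let-7, did not pass the filter, at 0.248 and 1.161 FPKM at E17.5, against 0.598 and 0.133 FPKM at E15.5.

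Since let-7 is a known regulator of several of these genes, its sequences and the matches to them in the 3′ untranslated regions are shown. Mature microRNAs are not captured by these polyA-selected libraries, so let-7 itself was not measured. The mature sequences (RefSeq, GRCm38.p6, 5′ to 3′) share the seed, bases 2 to 8, here in capitals. They lie at chr13:48538239-48538260 (minus strand), chr15:85707325-85707346 (plus), chr9:106178846-106178867 (plus) and chr10:122985698-122985719 (minus).
let-7a-5p: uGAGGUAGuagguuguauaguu
let-7b-5p: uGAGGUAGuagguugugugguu
let-7g-5p: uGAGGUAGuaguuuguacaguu
let-7i-5p: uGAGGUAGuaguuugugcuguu

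The complement of the seed, CTACCTC, was looked for on the mRNA strand of the 3′ untranslated region of each gene (GENCODE M21, GRCm38). All 9 tested heterochronic factors held it, with 16 matches in all, beside 10.6% of the 11418 tested genes with such a region. The list was drawn up in part from known let-7 targets, so this share describes the list. The match was present in 11.3% of the genes at least 2-fold lower in both regions and in 11.1% of those at least 2-fold higher. Per kilobase of untranslated region there were 0.130 matches in the lower, 0.0799 in the higher and 0.0704 in all tested genes, and the lower ones include 4 of the heterochronic factors. Hmga2 held 4 matches, Igf2bp1 held 4, and Igf2bp3 and Hmga1 held 1 each. Matches of these genes are shown with the 15 bases before and the base after, the match in capitals. They lie at chr10:120364224-120364246 (minus strand) for Hmga2, chr11:95961778-95961800 and chr11:95959357-95959379 (minus) for Igf2bp1, chr6:49086787-49086809 (minus) for Igf2bp3 and chr17:27563277-27563299 (plus) for Hmga1.
Hmga2, match 1 of 4: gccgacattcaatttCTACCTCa
Igf2bp1, match 1 of 4: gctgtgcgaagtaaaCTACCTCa
Igf2bp1, match 2 of 4: cagcagtgctattaaCTACCTCa
Igf2bp3, match 1 of 1: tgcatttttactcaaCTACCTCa
Hmga1, match 1 of 1: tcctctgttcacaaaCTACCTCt
A match is a description of these letters, and binding of let-7 was not measured.

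Other genes lower at E17.5 belonged to several families. Crabp1, which binds retinoic acid in the cytoplasm, was at 54.0 and 73.6 FPKM at E13.5, 8.84 and 22.3 FPKM at E15.5, and 0.477 and 1.13 FPKM at E17.5. Gfra1, the receptor of GDNF, was at 46.6 and 80.2 FPKM at E13.5, 9.80 and 12.4 FPKM at E15.5, and 0.538 and 1.41 FPKM at E17.5. Both genes were highest in the earliest pair and near 1 FPKM at E17.5. Stxbp2, a protein of vesicle fusion, was at 3.27 and 2.42 FPKM at E17.5, against 20.5 and 19.7 FPKM at E15.5. Tmem200a, a membrane protein, was at 5.35 and 8.78 FPKM at E17.5, against 23.6 and 38.2 FPKM at E15.5. Tmem267, another membrane protein, was at 2.02 and 2.11 FPKM at E17.5, against 13.2 and 9.39 FPKM at E15.5. The 2 stages did not overlap in any of these. Snurf was at 6.13 and 9.35 FPKM at E17.5, against 26.4 and 54.9 FPKM at E15.5, but it shares its transcript with Snrpn, so the split of reads between them is uncertain.

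Ccl11, or eotaxin, a chemokine that draws eosinophils, was highest at the middle stage. It was at 1.56 and 9.07 FPKM at E13.5, 78.4 and 171 FPKM at E15.5, and 8.84 and 15.8 FPKM at E17.5. Both E15.5 libraries were above the earlier and the later pair, and the log2 difference between E17.5 and E15.5 was -3.18 ± 0.16 (adjusted p = 0.0503).

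Histone genes made up 40 of the 223 genes at least 2-fold lower in both regions. They were grouped after their values were seen. Of 13 histone H4 genes, whose mRNA is made in S phase, all 13 were lower in both regions and 12 at least 2-fold so. Hist1h4h was at 175.4 and 192 FPKM at E17.5, against 675 and 706 FPKM at E15.5. Hist1h4c was at 67.5 and 73.9 FPKM at E17.5, against 288 and 313 FPKM at E15.5. Hist1h4b was at 212 and 182 FPKM at E17.5, against 761 and 668 FPKM at E15.5. The regions gave similar levels at each stage, and Hist1h4f, Hist1h4j and Hist1h4k had log2 differences of -1.95, -2.02 and -1.93. Over all 62 replication-dependent histone genes tested, 61 were lower in both regions, and the median was -1.69 in the proximal and -1.17 in the distal pair. Among the H2A genes, Hist1h2ah was at 3.01 and 3.90 FPKM at E17.5, against 18.1 and 15.97 FPKM at E15.5, and Hist2h2ab was at 14.002 and 11.47 FPKM at E17.5, against 50.6 and 55.3 FPKM at E15.5. These mRNAs mostly lack a polyA tail and their copies are nearly identical, so their levels in polyA libraries and their split between copies are uncertain.

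Genes of DNA replication were lower too, by less. All 49 listed were tested, and 45 were lower in both regions, beside 55.1% of all genes (on the TPM scale 44, beside 41.1%). Of the 49, 0 were higher in both, and the median was -0.79 in the proximal and -0.48 in the distal pair. The 6-library fit called 6 of the 49 lower, beside 2.64% of all genes. A single member was at least 2-fold lower in both regions: Chaf1b, of the chaperone that loads histones behind the fork, at 9.002 and 10.4 FPKM at E17.5, against 19.6 and 23.1 FPKM at E15.5. Gins1, of the replicative helicase, was at 12.5 and 5.68 FPKM at E17.5, against 20.1 and 18.8 FPKM at E15.5. Mcm10, an initiation factor, was at 5.10 and 7.46 FPKM at E17.5, against 11.7 and 15.3 FPKM at E15.5. The E17.5 libraries were below the E15.5 ones in each. Rfc3, a subunit of the clamp loader, was at 15.8 and 18.7 FPKM at E17.5, against 41.7 and 31.4 FPKM at E15.5. Its partner Rfc4 was at 9.26 and 12.2 FPKM at E17.5, against 22.99 and 21.4 FPKM at E15.5.

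Mitosis genes were low in 1 library above all, the E17.5 proximal one. Of 60 tested, 53 were lower in both regions (37 on the TPM scale), and the median was -1.18 in the proximal and -0.20 in the distal pair, the distal value being that of all genes. Mki67, the marker of cycling cells, was at 28.8 and 56.9 FPKM at E17.5, against 84.7 and 89.3 FPKM at E15.5. Birc5, or survivin, was at 26.1 and 54.3 FPKM at E17.5, against 79.1 and 71.2 FPKM at E15.5. Ncapg, a condensin subunit, was at 4.18 and 12.4 FPKM at E17.5, against 16.2 and 15.1 FPKM at E15.5. In these genes the E17.5 distal library lay between the proximal one and the E15.5 pair. Spc24 of the kinetochore was at 10.9 and 23.1 FPKM at E17.5, against 30.7 and 40.9 FPKM at E15.5. Pttg1, or securin, was lower in both regions alike, at 15.2 and 10.6 FPKM at E17.5, against 27.6 and 23.8 FPKM at E15.5. The difference between regions rests on 1 library and was not tested.

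Inhibitors of the cycle were mostly higher, 9 of 13 in both regions. Cdkn1a, or p21, was at 9.06 and 5.52 FPKM at E17.5, against 1.67 and 1.18 FPKM at E15.5. Cdkn1c, or p57, was at 1116 and 783 FPKM at E17.5, against 765 and 447 FPKM at E15.5. Btg2 was at 365 and 424 FPKM at E17.5, against 302 and 108 FPKM at E15.5, with 1 low library, the E15.5 distal one.

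Promoters of the cell cycle genes were read for motifs in windows from 250 bases before to 50 bases after the start (RefSeq, GRCm38.p6), on both strands, which existed for 8750 of the tested genes. E2F factors, which switch on S-phase genes, bind TTTCCCGC or TTTGGCGC. One or the other was present in 32.5% of 40 DNA replication promoters, against 3.29% of the promoters of tested genes and 1.63% of all promoters. The CHR element TTTGAA, known from genes of G2 and M phase, was present in 68.8% of 48 mitosis promoters, against 11.2% of those of tested genes and 18.1% of all. The CCAAT box was present in 70.8% of the mitosis promoters, against 39.2% of those of tested genes and 37.9% of all. The E2F and CHR motifs are known from genes of these kinds, so the shares describe the lists. Of 95 promoters of genes at least 2-fold lower in both regions, 4.21% held an E2F motif, 13.7% CHR and 49.5% CCAAT. Of 202 promoters of genes at least 2-fold higher in both, the shares were 0.495%, 10.4% and 34.7%. These are matches of letters, and binding was not measured. A promoter of each kind is shown: Rfc3 (chr5:151651159-151651458, minus strand) for DNA replication, with its E2F motif in capitals, and Mki67 (chr7:135716330-135716629, minus strand) for mitosis, with its CHR and CCAAT motifs of either strand in capitals.
Rfc3: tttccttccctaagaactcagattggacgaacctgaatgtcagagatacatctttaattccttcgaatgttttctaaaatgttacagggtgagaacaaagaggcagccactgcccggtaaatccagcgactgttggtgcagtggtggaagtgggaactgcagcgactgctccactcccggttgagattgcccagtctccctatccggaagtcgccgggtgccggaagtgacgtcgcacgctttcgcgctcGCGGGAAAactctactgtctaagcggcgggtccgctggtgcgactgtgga
Mki67: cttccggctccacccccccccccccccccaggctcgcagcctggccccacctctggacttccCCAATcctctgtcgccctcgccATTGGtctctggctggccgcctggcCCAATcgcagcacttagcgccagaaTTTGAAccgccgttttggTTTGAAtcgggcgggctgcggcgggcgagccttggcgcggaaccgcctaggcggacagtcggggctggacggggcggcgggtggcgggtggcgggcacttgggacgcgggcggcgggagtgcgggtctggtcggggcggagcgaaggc

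**Figure D5:**
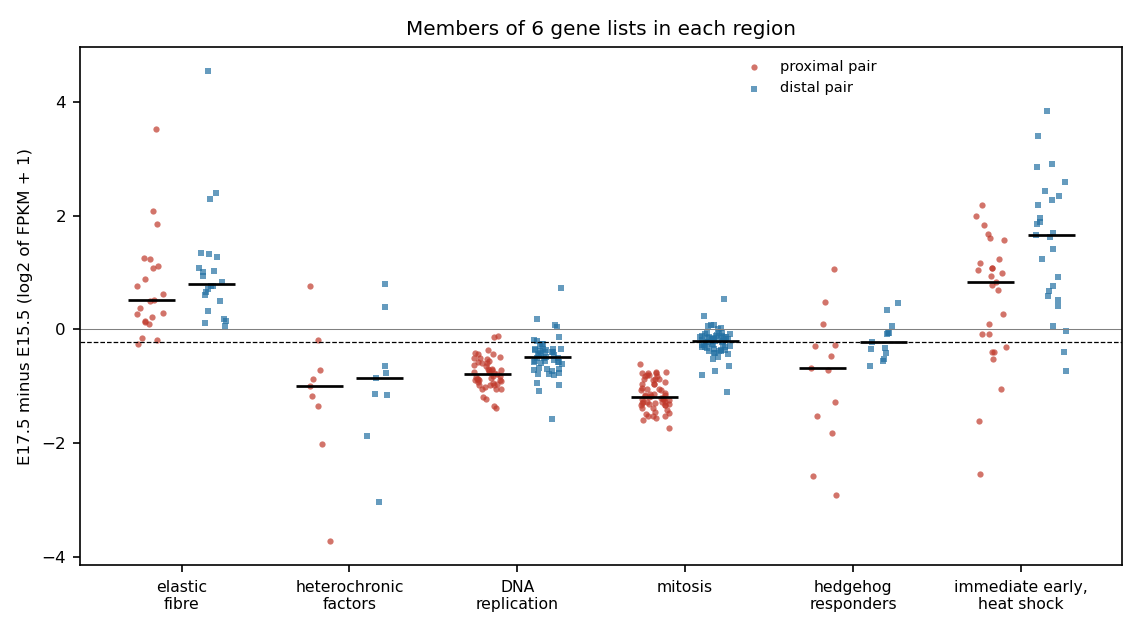
Difference between E17.5 and E15.5 (log2 of FPKM + 1) of each tested member of 6 gene lists in the proximal (red circles) and distal (blue squares) pair; bars are medians, the dashed line is the median of all genes (-0.23), and points are spread sideways for legibility. Mitosis genes have a median of -1.18 in the proximal and -0.20 in the distal pair, and hedgehog responders -0.68 and -0.21, while elastic fibre genes have 0.51 and 0.80 and heterochronic factors -0.99 and -0.85.

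Of the 22 FGF ligands, 9 passed the filter and neither fit called one. Fgf7, a ligand of the epithelial form of FGFR2, was at 25.5 and 14.5 FPKM at E17.5, against 6.06 and 2.57 FPKM at E15.5. Fgf10, which binds the same receptor and is needed for growth of the stomach epithelium, was lower at E17.5, at 2.53 and 30.1 FPKM at E13.5, 6.21 and 16.4 FPKM at E15.5, and 1.91 and 4.68 FPKM at E17.5. In both genes the E17.5 and E15.5 libraries did not overlap, and the log2 differences were 2.01 ± 0.15 for Fgf7 (adjusted p = 0.0587) and -1.46 ± 0.18 for Fgf10 (adjusted p = 0.0907). Fgf18 was at 4.46 and 2.74 FPKM at E17.5, against 0.158 and 0.111 FPKM at E15.5. Fgf9 was at 0.328 and 10.01 FPKM at E17.5, against 0.119 and 0.574 FPKM at E15.5, so that the E17.5 distal library alone carried it above 1 FPKM. In the E13.5 epithelial libraries Fgf9 was at 5.47 to 13.4 FPKM, and the part of epithelium in the fibroblast value was not tested.

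The other FGF ligands differed little or were low. Fgf2 was at 20.98 and 20.01 FPKM at E17.5, against 26.0 and 19.04 FPKM at E15.5. Fgf13 was at 9.37 and 10.6 FPKM at E17.5, against 14.2 and 8.57 FPKM at E15.5. The differences of Fgf2, Fgf13 and Fgf14 changed sign with the scaling. Fgf11 was at 1.499 and 1.81 FPKM at E17.5, against 3.39 and 2.57 FPKM at E15.5, and Fgf12 at 1.36 and 1.11 FPKM at E17.5, against 2.71 and 1.20 FPKM at E15.5. Among the receptors, Fgfr1, the usual receptor of mesenchyme, was at 108 and 97.8 FPKM at E17.5, against 66.4 and 47.2 FPKM at E15.5. Fgfr2 was at 96.8 and 85.4 FPKM at E17.5, against 169 and 154.9 FPKM at E15.5. Thus Fgfr1 was higher and Fgfr2 lower at E17.5 in both regions.

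Targets and antagonists of canonical WNT signals were higher in 12 of 17 cases in both regions and lower in 2, with a median of 0.80 in the proximal and 0.86 in the distal pair. Apcdd1, a membrane inhibitor of WNT signals, was at 59.7 and 29.0 FPKM at E17.5, against 9.40 and 5.72 FPKM at E15.5 (adjusted p = 0.0554, and 0.0169 in the 6-library fit). Nkd1, an intracellular antagonist, was at 102 and 24.3 FPKM at E17.5, against 25.5 and 11.6 FPKM at E15.5. Notum, an enzyme that removes the lipid of WNT proteins, was at 5.75 and 1.163 FPKM at E17.5, against 0.0337 and 0 FPKM at E15.5. Sp5, a transcription factor that WNT induces, was at 7.44 and 1.40 FPKM at E17.5, against 0.612 and 0.0695 FPKM at E15.5. All of them were highest in the E17.5 proximal library.

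Of 12 WNT ligands and R-spondins tested, 7 were higher in both regions and 4 lower. Wnt4 was at 21.2 and 12.5 FPKM at E17.5, against 8.02 and 2.09 FPKM at E15.5. Wnt6 was at 9.18 and 3.65 FPKM at E17.5, against 1.02 and 0.353 FPKM at E15.5. Wnt2b was at 15.6 and 14.1 FPKM at E17.5, against 10.5 and 2.55 FPKM at E15.5. Wnt10a was at 6.82 and 1.23 FPKM at E17.5 and listed at 0 in both E15.5 libraries. Rspo3, which strengthens WNT signals, was lower, at 4.80 and 5.69 FPKM at E17.5, against 13.9 and 8.74 FPKM at E15.5.

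Responders of hedgehog proteins were low in the E17.5 proximal library. Over the 13 genes, 9 were lower in both regions (6 on the TPM scale), beside 55.1% of all genes, neither fit called one, and the median was -0.68 in the proximal and -0.21 in the distal pair. Ptch1, receptor and target of the pathway, was at 73.2 and 214 FPKM at E17.5, against 262 and 227 FPKM at E15.5. Gli1, its effector, was at 11.1 and 25.2 FPKM at E17.5, against 33.7 and 36.7 FPKM at E15.5. In both of these the E17.5 proximal library was the lowest of the 4. Hhip, a decoy receptor, was at 0.208 and 16.1 FPKM at E17.5, against 8.05 and 15.3 FPKM at E15.5. Foxl1, a factor of the cells under the epithelium, was at 3.80 and 24.1 FPKM at E17.5, against 27.5 and 30.4 FPKM at E15.5. For Ptch1, Hhip and Foxl1 the E17.5 distal library lay near the E15.5 level, so the contrast is that of 1 library.

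Of 24 BMP ligands, antagonists and targets tested, 14 were higher in both regions and 4 lower. Fst, or follistatin, an antagonist of activin and BMP, was at 170.2 and 61.7 FPKM at E13.5, 26.6 and 9.01 FPKM at E15.5, and 3.64 and 2.67 FPKM at E17.5. It was lower at each later stage in both regions. Id1, a direct BMP target, was at 13.2 and 62.9 FPKM at E17.5, against 71.3 and 81.8 FPKM at E15.5, low in the E17.5 proximal library.

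Of 14 TGF-beta and activin genes tested, 10 were higher in both regions. Tgfb3 was at 11.2 and 30.8 FPKM at E17.5, against 3.70 and 9.60 FPKM at E15.5. Tgfbi, a matrix protein that TGF-beta induces, was at 454 and 483 FPKM at E17.5, against 204 and 201 FPKM at E15.5. Inhba, the activin A subunit, was at 1.48 and 6.34 FPKM at E17.5, against 0.125 and 0.365 FPKM at E15.5. Both E17.5 libraries were above both E15.5 libraries in each of these.

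The Notch list had 7 of 10 genes lower in both regions beside 55.1% of all genes, and 6 on the TPM scale, beside 41.1%. Its effector Heyl was at 3.77 and 8.64 FPKM at E17.5, against 9.14 and 18.8 FPKM at E15.5. Hey2, another effector, was at 0.837 and 1.48 FPKM at E17.5, against 3.24 and 4.68 FPKM at E15.5. In both genes the level was higher in the distal than in the proximal stomach at each stage. Of 15 retinoic acid genes tested, 5 were higher in both regions and 6 lower. Rdh10, which makes retinaldehyde, was at 3.69 and 8.50 FPKM at E17.5, against 13.8 and 19.3 FPKM at E15.5. Aldh1a2, the main retinaldehyde dehydrogenase of embryonic mesenchyme, was at 174 and 132 FPKM at E17.5, against 107 and 42.9 FPKM at E15.5.

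Among other growth factor genes, Kit differed in the distal pair only, at 5.27 and 1.158 FPKM at E17.5, against 4.97 and 14.8 FPKM at E15.5. Its ligand Kitl was at 21.9 and 22.3 FPKM at E17.5, against 13.1 and 5.26 FPKM at E15.5. Pdgfc, a ligand of PDGFRα, was at 16.9 and 8.54 FPKM at E17.5, against 2.02 and 1.48 FPKM at E15.5. Both ligands were higher at E17.5 in both regions. Pappa, a protease that frees IGF from its binding proteins, was at 7.90 and 4.41 FPKM at E17.5, against 0.375 and 0.228 FPKM at E15.5. Its relative Pappa2 was at 11.6 and 6.23 FPKM at E17.5, against 0.799 and 0.501 FPKM at E15.5. Igfbp7 was at 272 and 221 FPKM at E17.5, against 105 and 76.8 FPKM at E15.5. These 3 genes were at least 2-fold higher at E17.5 in both regions, as was Igfbp3, at 8.25 and 32.9 FPKM at E17.5, against 3.26 and 6.79 FPKM at E15.5.

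Of the transcription factors of stomach mesenchyme, 1 of 21 tested was at least 2-fold higher in both regions and 0 were at least 2-fold lower. Barx1, which specifies stomach mesenchyme, was at 169.7 and 375 FPKM at E13.5, 114.6 and 219 FPKM at E15.5, and 76.6 and 117 FPKM at E17.5. It was lower at each later stage and higher in the distal stomach throughout. Foxf1, a hedgehog-dependent factor of gut mesenchyme, was at 125 and 163 FPKM at E17.5, against 199.6 and 218 FPKM at E15.5. The single 2-fold gene was Tbx3, at 17.0 and 25.2 FPKM at E17.5, against 7.78 and 1.98 FPKM at E15.5. Six2, a factor of the distal stomach, was at 2.72 and 31.0 FPKM at E17.5, against 3.35 and 78.4 FPKM at E15.5. It was a distal gene at both stages. Hand2 was at 4.92 and 10.5 FPKM at E17.5, against 8.41 and 29.5 FPKM at E15.5, and the Hox genes had a median of -0.24 in the proximal and -0.17 in the distal pair.

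Of 18 fibroblast identity genes tested, 7 were higher at E17.5 in both regions and 7 lower, 3 of the higher ones and 0 of the lower ones by at least 2-fold. Dpt, or dermatopontin, a matrix protein of fibroblasts in many tissues, was at 2.97 and 1.27 FPKM at E13.5, 127 and 35.6 FPKM at E15.5, and 435 and 351 FPKM at E17.5. Cd34, a surface protein of perivascular fibroblasts, was at 157 and 125 FPKM at E17.5, against 55.9 and 28.2 FPKM at E15.5. Dpt was low at the first stage and abundant at the last. Thy1 was at 59.4 and 5.68 FPKM at E17.5, against 0.835 and 2.90 FPKM at E15.5, with 1 high library, the E17.5 proximal one. Among the lower genes, Tcf21, a factor of visceral fibroblasts, was at 170.0 and 189 FPKM at E17.5, against 269 and 339 FPKM at E15.5. Twist1, a factor of embryonic mesenchyme, was at 32.1 and 13.3 FPKM at E17.5, against 59.3 and 21.4 FPKM at E15.5. In a list of adventitial and trophocyte-type fibroblasts, 9 of 17 genes passed the filter and 4 were at least 2-fold higher in both regions: Clec3b, Mfap5, Col15a1 and Cd34, of which Clec3b alone is in no other list. Of 15 tested genes of subepithelial PDGFRα-high cells, Tgfbi was at least 2-fold higher, and Cxcl14 at least 2-fold lower, at 13.7 and 8.65 FPKM at E17.5, against 46.6 and 20.2 FPKM at E15.5.

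Complement and antigen presentation genes were higher in 14 of 17 cases in both regions, 5 of them at least 2-fold. H2-K1 was at 6.96 and 7.29 FPKM at E17.5, against 0.546 and 1.03 FPKM at E15.5. H2-D1 was at 5.80 and 6.64 FPKM at E17.5, against 0.284 and 1.20 FPKM at E15.5. Both are class I genes with near-identical relatives, so reads can be split between them. Psmb8 of the immunoproteasome was at 4.12 and 3.35 FPKM at E17.5, against 0.413 and 0.218 FPKM at E15.5. C1s1, a protease of the complement cascade, was at 31.5 and 18.2 FPKM at E17.5, against 3.68 and 10.7 FPKM at E15.5. Interferon-responsive genes had a median of 0.78 in the proximal and 0.76 in the distal pair, with 12 of 18 higher in both regions. Ifitm3 was at 276 and 172 FPKM at E17.5, against 124 and 77.0 FPKM at E15.5, and Xaf1 was at 3.45 and 2.93 FPKM at E17.5, against 0.184 and 0.0553 FPKM at E15.5. The part of the leukocyte markers, whose sum was also higher at E17.5, in these values was not tested.

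Of the cytokine genes, Il6 was at 21.9 and 7.84 FPKM at E17.5, against 0.858 and 0 FPKM at E15.5. Cxcl1, a chemokine that draws neutrophils, was at 125 and 89.5 FPKM at E17.5, against 18.1 and 4.93 FPKM at E15.5. Cxcl10 was at 7.82 and 12.7 FPKM at E17.5, against 3.03 and 0.661 FPKM at E15.5. Il6, Cxcl1 and Cxcl10 were highest in the E17.5 libraries, as were many immediate early genes. Of 12 chemokine and cytokine genes tested, 6 were higher in both regions, 3 of them at least 2-fold, and 2 were at least 2-fold lower. The median was 0.70 in the proximal and 0.30 in the distal pair. Ccl11, given above, was lower in both.

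Immediate early and heat shock genes had a median difference of 0.83 in the proximal and 1.66 in the distal pair, and 11 of 27 (40.7%) were at least 2-fold higher in both regions. Fos was at 370.1 and 285 FPKM at E13.5, 1343 and 715 FPKM at E15.5, and 2849 and 3268 FPKM at E17.5. Atf3 was at 174 and 213 FPKM at E17.5, against 42.9 and 13.9 FPKM at E15.5. Ier3 was at 65.4 and 69.0 FPKM at E17.5, against 13.6 and 5.63 FPKM at E15.5. The order E13.5, E15.5, E17.5 held in both regions for these 3 genes. Zfp36, which destabilizes cytokine mRNAs, was at 991 and 903 FPKM at E17.5, against 310.1 and 123 FPKM at E15.5. Dusp1 was at 306 and 315 FPKM at E17.5, against 99.4 and 51.3 FPKM at E15.5. The heat shock gene Hspa1a, which has a near-identical neighbour, was at 9.83 and 16.3 FPKM at E17.5, against 2.02 and 1.304 FPKM at E15.5. Not all members took this course, and 3 were lower in both regions: Egr3, Nr4a2 and Hspa8. Such genes answer within minutes to the handling of cells. The time from dissection to lysis is not given in the sources used here, and its part in these values was not tested.

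Glucocorticoid-responsive genes were higher in 14 of 16 cases in both regions, 5 of them at least 2-fold, among them Mt1, Dusp1 and Cdkn1a. Klf9 was at 47.0 and 42.2 FPKM at E17.5, against 10.2 and 6.45 FPKM at E15.5. Zbtb16 was at 9.75 and 3.52 FPKM at E17.5, against 0.847 and 0.735 FPKM at E15.5. Their levels were several times higher at E17.5 in both regions. Of 13 genes of fat cells and lipid handling tested, 9 were higher in both regions. Cebpd, a factor of adipogenesis and of the acute phase response, was at 124 and 69.7 FPKM at E17.5, against 25.5 and 12.7 FPKM at E15.5. Apoe, a lipid carrier, was at 57.7 and 40.1 FPKM at E17.5, against 19.2 and 14.2 FPKM at E15.5. Pparg, the master factor of fat cells, was lower, at 1.60 and 2.57 FPKM at E17.5, against 11.3 and 3.94 FPKM at E15.5.

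Genes of cholesterol synthesis were lower in 19 of 22 cases in both regions, beside 55.1% of all genes. On the TPM scale 18 were, beside 41.1%, and none was at least 2-fold lower in both. Dhcr7 was at 13.99 and 27.6 FPKM at E17.5, against 51.9 and 43.3 FPKM at E15.5. Hmgcs1 was at 44.4 and 51.5 FPKM at E17.5, against 111 and 75.6 FPKM at E15.5. Insig1, which restrains the pathway, was at 29.3 and 38.0 FPKM at E17.5, against 81.1 and 48.4 FPKM at E15.5. The lowest library was the E17.5 proximal one in each. Glycolysis and hypoxia genes were low in that library as well, with a median of -0.70 in the proximal and 0.10 in the distal pair. Eno1 was at 177 and 228 FPKM at E17.5, against 458 and 361 FPKM at E15.5. Pdk1 was at 11.4 and 17.6 FPKM at E17.5, against 36.7 and 22.01 FPKM at E15.5. Both were lower at E17.5 in each region, while Pfkp was higher, at 7.54 and 4.89 FPKM at E17.5, against 2.44 and 2.31 FPKM at E15.5.

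Smooth muscle genes were higher at E17.5 in 13 of 16 cases in both regions, and the 6-library fit called 4. Tagln was at 495 and 336 FPKM at E17.5, against 159 and 101 FPKM at E15.5 (adjusted p = 0.0554, and 0.0135 in the 6-library fit). Actg2 was at 173 and 123 FPKM at E13.5, 68.6 and 47.8 FPKM at E15.5, and 197 and 100.3 FPKM at E17.5, lowest at the middle stage. Myh11 was at 59.1 and 23.5 FPKM at E17.5, against 15.3 and 10.7 FPKM at E15.5. In bulk RNA, fibroblasts that turn contractile and smooth muscle cells within the sort cannot be told apart, nor can fewer cells of a type and less RNA per cell.

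Several genes of keratinocytes, the lining cells of the forestomach, were highest in the E17.5 proximal library. Of 24 squamous markers, 10 reached 1 FPKM in the E17.5 proximal and 4 in the E17.5 distal library, against 3 in the E15.5 proximal and 2 in the E15.5 distal library. Krtdap, a secreted protein of differentiating keratinocytes, was at 35.8 and 10.5 FPKM at E17.5 and listed at 0 in both E15.5 libraries. Krt13 was at 12.7 and 1.02 FPKM at E17.5, against 1.19 and 0 FPKM at E15.5. Krt4, its partner in the lining of esophagus and forestomach, was at 6.62 and 0.185 FPKM at E17.5, against 0.472 and 0 FPKM at E15.5. Of 6 squamous markers tested, 5 were higher at E17.5 in both regions and 1 was lower. Krt10 was lower, at 6.87 and 8.51 FPKM at E17.5, against 9.44 and 10.9 FPKM at E15.5. Krt15 was at 1.09 and 0.558 FPKM at E17.5, against 1.77 and 0.0902 FPKM at E15.5. The basal keratinocyte factor Trp63 was near 0 in all 4 libraries, at 0.0364 and 0.0442 FPKM at E17.5, against 0.00923 and 0.144 FPKM at E15.5. Epcam, a surface protein of gut epithelium, was no higher at E17.5, at 0.624 and 0.346 FPKM at E17.5, against 1.15 and 0.502 FPKM at E15.5.

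Without the 454 tested genes that were at least 4-fold higher in E13.5 epithelium than in E13.5 fibroblasts, 274 genes were at least 2-fold higher at E17.5 in both regions and 205 lower. Krtdap, listed at 0 in E13.5 fibroblasts and epithelium alike, is not removed by this filter. Krt13 and Krt4 are removed, since both were at 0 in the E13.5 fibroblasts. In E13.5 epithelium they reached only 0.528 and 1.24 FPKM. The part of forestomach lining in the other values of the E17.5 proximal library was not tested.

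Of the 14 entries called by the 4-library fit, 5 were protein-coding, and the other 9 were pseudogene or noncoding RNA entries. Among the small RNAs that the ranking named, Snora41 was at 22.4 and 11.9 FPKM at E15.5 and listed at 0 in both E17.5 libraries. Mir199a-2 was at 9.95 and 10.9 FPKM at E15.5 and likewise listed at 0 at E17.5. Mir692-2 was at 10.6 and 10.3 FPKM at E17.5 and listed at 0 at E15.5. Scarna13, a guide RNA of Cajal bodies, was at 43.0 and 26.5 FPKM at E17.5, against 149 and 164 FPKM at E15.5, and Scarna17 was at 0 and 30.6 FPKM at E17.5, against 223 and 169 FPKM at E15.5. FPKM of such short transcripts varies widely, since a few fragments give a large value.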

How the data were processed

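The authors sorted PDGFRα-positive cells, made polyA-selected stranded libraries and deposited 1 table of FPKM values made with Cufflinks 2.2.1; the submitters' processing notes also name HISAT2 2.1.0 and cutadapt 1.16, and the genome build mm10. FPKM is scaled by transcript length and library size, so a few very abundant genes can shift all others, and read counts cannot be recovered. The strand setting of the quantification and the dissociation of the E15.5 and E17.5 tissue are not given in the sources used here.

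From the 4 columns, log2(FPKM + 1) was fitted with limma 3.58.1 (R 4.3.3; region as block plus stage, variance trend, Benjamini-Hochberg adjustment) over the 12675 genes whose mean reached 1 FPKM. The region served as the pairing of the libraries by design. A second fit added the E13.5 pair. The fit was tested on simulated data. Genes were named by the 20 largest differences of the same direction in both regions among those whose mean reached 5 FPKM, the 10 largest of opposite direction, and the members of 47 gene lists. Members and lists were chosen with earlier results of these data known. Alternatives covered the pseudocount, filter, scaling, block and left-out libraries. Sequences came from RefSeq tables and the GRCm38 genome. The other 10 libraries, of E11.5 and E13.5 epithelium, served for marker levels, to define epithelium-enriched genes and to show the spread of called entries. Some genes that the naming rule selects are not reported here.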

Additional observations from a re-analysis of the deposited data

Results flagged for a closer look

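The 10 genes with the largest differences of opposite direction in the 2 regions are given here, as log2(FPKM + 1) at E17.5 minus E15.5. With 1 library for each stage and region the difference between regions was not tested. Most are small RNA entries. Snord82 differed by 7.57 in the proximal and -6.68 in the distal pair, Snord7 by 6.32 and -5.70, and Snord83b by 6.47 and -5.27. Mir1839 differed by 5.72 and -4.36, and Mir432 by 2.27 and -5.37. Snora3 differed by 2.54 and -5.04, and Snora74a by -3.28 and 3.71. Each of these 7 entries is listed at 0 in at least 1 of the 4 libraries, so the size depends on the pseudocount.

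The other 3 are protein-coding. Rbp4, the retinol carrier of plasma, differed by -1.03 in the proximal and 2.22 in the distal pair, with 14.9 and 18.3 FPKM at E17.5, against 31.5 and 3.14 FPKM at E15.5. The regions were close at E17.5, and the E15.5 pair was spread to both sides of them. Pianp differed by -1.25 and 1.75, with 2.62 and 8.83 FPKM at E17.5, against 7.61 and 1.92 FPKM at E15.5. Tceal5 differed by -1.29 and 1.40, with 4.18 and 10.6 FPKM at E17.5, against 11.7 and 3.38 FPKM at E15.5.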

How the results depend on the processing

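The number of genes called by limma (11 higher and 3 lower) depended on nearly every choice. It was 1 and 1 with a pseudocount of 0.1, 1 and 2 with 0.5, 35 and 15 among genes whose mean reached 5 FPKM, 1 and 1 with each library scaled to the same sum (TPM), 50 and 10 with quantile-normalized values, and 56 and 28 without epithelium-enriched genes. It was 0 and 0 without a filter on low values (4006 genes at an unadjusted p under 0.05) and 0 and 0 without a trend in the variance (3221 such genes). With the E13.5 pair added it was 212 and 334. Among protein-coding genes alone it was 154 and 101, and with each library centred on its median 82 and 22, both chosen after the data were seen. The fit without the block, in which the regions are not paired, called 39 and 30, and 591 and 556 genes differed by 2-fold or more in the mean. Regions served as the block because each stage had 1 library of each region. Leaving out 1 library leaves the 4-library fit no residual degrees of freedom, so it then gives no calls. The 6-library fit without 1 library called 0 genes.

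Of the counts of genes 2-fold different in both regions (332 higher, 223 lower), the higher one was 215 among genes whose mean reached 5 FPKM. The lower one was 390 with a pseudocount of 0.1 and 138 after centring. With 1 library left out, which leaves 1 region to judge, they were 623 to 705 higher and 617 to 899 lower. Among 2-fold genes the share that was higher was 59.8%, 71.4% for TPM, 72.3% for quantile-normalized values and 76.2% after centring, but 53.4% with a pseudocount of 0.1, 51.5% with regions not paired, 53.3% in the distal pair alone and 40.9% in the proximal pair alone, where lower genes were the majority. Of the called genes, Tnc, Fmo2, Fmo1 and Gadd45g were followed through these settings and kept their direction. Their regions agreed, so this was nearly fixed in advance. Named genes that changed direction with the scaling were Fgf2, Fgf13 and Fgf14. With a library left out the same genes did so too, as did Hhip, Plau, Kit, Rbp4, Tceal5 and Pianp. The small RNA entries of opposite direction take the sign of whichever region is left. Total reads are not known, and genes near 1 FPKM are the least certain.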

Other observations

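Imprinted growth genes and the IGF system did not move in 1 direction. Of 27 imprinted growth genes tested, 10 were higher at E17.5 in both regions, 10 were lower in both and 0 differed by 2-fold in both, and of 14 IGF receptor and binding protein genes, 4 were at least 2-fold higher and 2 at least 2-fold lower.

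Some of the pseudogene entries among the calls varied strongly in libraries of the same group elsewhere in the series. Rps3a3, a processed pseudogene called lower, was at 3.24 and 3.75 FPKM at E17.5, against 202 and 202 FPKM at E15.5, but in the E13.5 epithelial libraries labelled Gata4-high it was at 1.07, 273 and 300.0 FPKM. The spread within that group was as large as the difference between the stages. RP24-499C1.5, called higher, was at 20.9 and 27.0 FPKM at E17.5, against 0.0950 and 0.302 FPKM at E15.5, and at 21.8, 0.0604 and 0 FPKM in that group. Others were steady there, such as Gm6594 with 25.1, 26.9 and 32.0 FPKM, and RP24-321J24.3 was at 2.21 FPKM or less in all epithelial libraries, against 38.7 and 41.1 FPKM in the E17.5 fibroblasts. In limma fits to protein-coding genes alone, a restriction chosen after the data were seen, 154 were called higher and 101 lower.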
